A study of Mus musculus with 6 samples.

Results

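The decoy receptor TNFRSF22 was far higher in Ad-Cre-treated than in Ad-eGFP-treated Sertoli cells, and the death receptor FAS and 2 of the 5 probes of the death receptor TNFRSF10B were higher by a smaller amount. The death receptor TNFRSF1A overlapped between treatments, and the caspase CASP8 differed by 0.19 or less on the log2 scale. The ligand TNFSF10 and the decoy receptor relatives TNFRSF23 and TNFRSF26 were not above background on any array. The 10 genes described are TNFRSF22, TNFRSF23, TNFRSF26, TNFRSF10B, FAS, TNFRSF1A, TNFRSF1B, TNFRSF12A, TNFSF10 and CASP8, out of 31490 different symbols on the array, and every probe that carries one of these symbols was taken, which gave 24 of 45281 probes. The genes were selected on the difference between the same Ad-Cre and Ad-eGFP arrays, and TNFRSF22 and TNFRSF12A also stand on the study's own list of changed genes, which was chosen from these samples. Their differences are therefore given as a description without a test.

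Death receptors belong to the tumor necrosis factor (TNF) receptor superfamily and carry a death domain in the cytoplasm, which after ligand binding recruits the adaptor FADD and CASP8 and thereby starts apoptosis. Decoy receptors bind the same ligands without a working death domain, and the mouse decoy receptors TNFRSF22 and TNFRSF23 bind TRAIL, the protein encoded by TNFSF10. In the testis, FAS and its ligand have been studied as a route of germ cell loss under stress, and Sertoli cells surround and nourish these germ cells.

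Primary Sertoli cells were isolated from pooled seminiferous tubules of 3-week-old C57BL/6J mice of the genotype Ctnnb1(tm1Mmt/tm1Mmt), whose floxed alleles encode a degradation-resistant CTNNB1 protein once Cre has acted. The cultures were infected for 24 h, at an MOI of 50, with an adenovirus that expresses either Cre recombinase (Ad-Cre) or eGFP (Ad-eGFP, the control), so the cells of both treatments carried the floxed alleles and received a virus. The RNA of 3 samples per treatment was hybridized to Illumina mouse BeadChip arrays, and nothing in the sources used here says whether the replicates came from separate cultures, so the p-values measure only the spread between these samples, which may be technical. Cells without floxed alleles that received Ad-Cre were not analysed here, so effects of the recombined allele, of Cre recombinase and of the Ad-Cre virus cannot be told apart. Median raw signals were 129 to 137 for Ad-Cre and 131 to 134 for Ad-eGFP arrays, and between 20288 and 20901 probes per array were detected, that is, had a detection p-value under 0.05 against the negative-control beads. Tests were made for the 20855 probes detected on 3 or more of the 6 arrays, and the number of arrays limits the precision.

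The eGFP probe was used as a check of the labels. Its normalized log2 intensity, which is background-corrected and quantile normalized so that a difference of 1 is a doubling, was 13.18, 13.14 and 12.72 on Ad-Cre arrays 1, 2 and 3 and 14.99, 15.01 and 14.79 on Ad-eGFP arrays 1, 2 and 3. Every Ad-eGFP array lay above every Ad-Cre array, as the labels require. The eGFP probe was nevertheless bright on the Ad-Cre arrays, with raw signals of 9895, 9176 and 7215 beside array medians of 129 to 137. The check therefore rests on the order of the arrays, and the source of that signal was not tested. The Ctnnb1 probes differed by 0.22, 0.30 and -0.39 (Ad-Cre minus Ad-eGFP), and they check no label here because their place relative to the part that Cre removes is not given in the sources used.

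Of the 24 probes of the 10 genes, 15 were tested, and these belong to TNFRSF22, TNFRSF10B, FAS, TNFRSF1A, TNFRSF12A and CASP8. The other 9 probes were too dim to be tested, and TNFRSF23, TNFRSF26, TNFRSF1B and TNFSF10 had no tested probe. An adjusted p under 0.05 in the limma fit across all tested probes was reached by 8 of the 15 probes, against 22.9% of all tested probes. All 8 were higher with Ad-Cre, against 10.7% of all tested probes, and 0 were lower, against 12.2%. Treatments were without overlap for 9 of the 15 probes, against 42% of all tested probes. Nothing is read from these counts, because the same contrast chose the genes. The share of 22.9% stands for 4774 probes, a count that fell to 2483 without Ad-eGFP replicate 3. The median log2 difference was 0.61 over the 15 probes and 6.42e-04 over all 20855 tested probes. In these bulk samples, fewer cells of a type and less RNA per cell cannot be told apart.

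TNFRSF22 encodes a TRAIL-binding decoy receptor and was measured by 4 probes, each of which is given separately. The normalized log2 intensity of probe 430301 was 12.81, 12.96 and 12.71 on Ad-Cre arrays 1, 2 and 3 and 8.96, 8.92 and 8.75 on Ad-eGFP arrays 1, 2 and 3. The 3 Ad-Cre arrays lay close together and far above the Ad-eGFP arrays. The Ad-Cre mean was 12.83 ± 0.13 (SD, n = 3) and the Ad-eGFP mean 8.88 ± 0.11 (SD, n = 3), a log2 difference of 3.95 or 15.5-fold. In order of log2 difference this probe ranked 3 from the top of the 20855 tested probes, and the gene was chosen by that difference. The difference was 3.70 without background correction, the lowest of its alternatives, which reached up to 4.04. In raw signal, before any correction, it stood at 7489, 8070 and 7160 with Ad-Cre and at 628.5, 558 and 502 with Ad-eGFP.

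TNFRSF22 probe 4640220 gave log2 intensities of 10.05, 10.51 and 10.15 with Ad-Cre and 6.36, 6.62 and 6.56 with Ad-eGFP. Its groups were as clearly apart as those of the first probe. The mean was 10.24 ± 0.24 (SD, n = 3) against 6.51 ± 0.14 (SD, n = 3), a log2 difference of 3.72 or 13.2-fold, which became 2.78 without background correction and 3.31 with a background offset of 50 in place of 16, in a range from 2.78 to 3.85. TNFRSF22 probe 6960128 had log2 intensities of 8.65, 8.88 and 8.45 with Ad-Cre and 4.58, 4.67 and 4.60 with Ad-eGFP. It was detected on all 3 Ad-Cre arrays and on no Ad-eGFP array, so with Ad-eGFP it lay below the detection limit. Set against the lowest signal that counted as detected on each Ad-eGFP array, TNFRSF22 was at least 9.38-fold higher with Ad-Cre by this probe under the background correction used here. The measured log2 means were 8.66 ± 0.21 (SD, n = 3) and 4.62 ± 0.05 (SD, n = 3), and their difference of 4.05 became 2.25 without background correction and 2.91 with the offset of 50, in a range from 2.25 to 4.17. Both of these are smaller than that bound, which thus holds for this correction alone. The last TNFRSF22 probe, 3780274, was detected on no array, with raw signals from 96.5 to 104 with Ad-Cre and from 90.2 to 100.3 with Ad-eGFP. Thus 3 of the 4 TNFRSF22 probes were high with Ad-Cre, whereas 1 gave no signal above background in either treatment, and the probe sequences that could show which transcript each one reads were not used here.

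**Figure D1:**
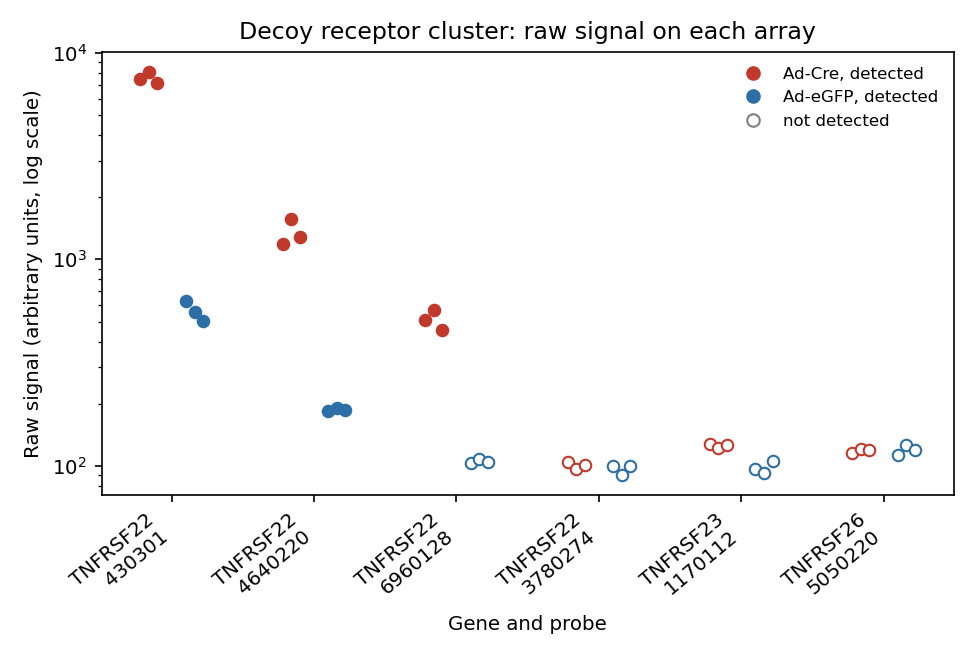
Raw signal (arbitrary units, log scale) of each probe of TNFRSF22, TNFRSF23 and TNFRSF26 on the 3 Ad-Cre and the 3 Ad-eGFP arrays, with 1 point per array and open points where the probe was not detected. For TNFRSF22 probe 430301 the Ad-Cre arrays stand between 7160 and 8070 and the Ad-eGFP arrays between 502 and 628.5, whereas the probes of TNFRSF23 and TNFRSF26 stay between 92.7 and 128 on every array.

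TNFRSF23 encodes another TRAIL-binding decoy receptor, and its gene is the direct neighbor of TNFRSF22. Its single probe, 1170112, had raw signals of 128, 123 and 126 with Ad-Cre and 96.6, 92.7 and 106 with Ad-eGFP. The Ad-Cre arrays lay above the Ad-eGFP arrays, but all 6 values were within the range of the negative controls, so no fold is given. TNFRSF26 encodes a related receptor of the same cluster. Its probe 5050220 had raw signals of 115, 120.3 and 119 with Ad-Cre and 114, 126 and 119 with Ad-eGFP, and it was detected on no array. The signals of TNFRSF26 overlapped between treatments.

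TNFRSF26, TNFRSF22 and TNFRSF23 follow each other directly on mouse chromosome 7 in the RefSeq annotation of GRCm38.p6, and the 4 nearest protein-coding genes on each side, chosen after the values were seen and not tested here, were looked at beside them. The nearest gene beyond TNFRSF26, Cars, which encodes a cysteinyl-tRNA synthetase, was higher with Ad-Cre by 0.79 and 0.83 on the log2 scale for its probes, and by 0.32 and 0.31 without background correction. The Cars probe with 0.83 was detected on only 1 Ad-eGFP array, so that size rests on Ad-eGFP values mostly below the detection limit. Further out on that side, Phlda2 was detected on the Ad-Cre arrays alone and was at least 1.41-fold higher under the background correction used here, a bound not reached by its log2 differences of 0.28 without that correction and 0.44 with the offset of 50, whereas the tested probes of Nap1l4 and Slc22a18 differed by -0.08 and 0.03. The nearest gene beyond TNFRSF23, Osbpl5, differed by 0.16. Of the genes further out on the TNFRSF23 side, Mrgprg differed by 0.02, Mrgpre was not detected on any array, and Nadsyn1 was lower with Ad-Cre by a log2 difference of -0.49 for its brighter tested probe, or -0.18 without background correction. The tested TNFRSF22 probes ranked 1, 3 and 5 of the 20855 tested probes by this difference, which also chose the gene. Smaller differences of the neighbors were therefore nearly fixed in advance, and nothing is read from them.

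The 5 tested probes of other genes whose log2 intensities over the 6 arrays were most like those of TNFRSF22 probe 430301 were those of RASL11B, G1P2, USP18, IRGM and RASSF1, with a Pearson correlation of 0.999 or more for each. The 6 arrays fall into the separate groups of Ad-Cre and Ad-eGFP, so a high correlation is shared by any probe whose groups lie far apart relative to their spread. The log2 differences of these probes were unequal, from 0.72 for RASL11B to 3.42 for USP18, and that of USP18 was 2.55 without background correction, in a range from 2.55 to 3.49.

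TNFRSF10B encodes the mouse death receptor for TRAIL and was measured by 5 probes. The log2 intensity of probe 1570100 was 7.96, 7.90 and 7.75 with Ad-Cre and 6.37, 6.60 and 6.56 with Ad-eGFP. Every Ad-Cre array lay more than a log2 unit above every Ad-eGFP array. The mean of this TNFRSF10B probe was 7.87 ± 0.11 (SD, n = 3) against 6.51 ± 0.12 (SD, n = 3), a log2 difference of 1.36 or 2.56-fold. Without background correction that difference was 0.81, and with the offset of 50 it was 1.10, in a range from 0.81 to 1.42.

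Probe 2370017 of TNFRSF10B gave 6.84, 6.95 and 7.19 with Ad-Cre and 6.14, 6.10 and 6.00 with Ad-eGFP. The arrays of the treatments were again apart. Its mean was 6.99 ± 0.18 (SD, n = 3) against 6.08 ± 0.07 (SD, n = 3), a log2 difference of 0.91 or 1.88-fold, which became 0.44 without background correction and 0.67 with the offset of 50, in a range from 0.44 to 0.99. The other TNFRSF10B probes did not separate the treatments. Probe 1990541 gave 8.63, 8.14 and 7.89 with Ad-Cre and 8.06, 7.67 and 7.91 with Ad-eGFP, and its difference of 0.34 was smaller than the SD of 0.38 between the Ad-Cre arrays. Leaving out Ad-Cre replicate 1 gave 0.14 and leaving out replicate 3 gave 0.51, the ends of its range. Probe 1300164 was detected on the 3 Ad-Cre arrays and on 1 Ad-eGFP array, with a difference of 0.48 that became 0.18 without background correction and 0.72 without Ad-eGFP replicate 3, and probe 3130092 was detected on no array. The probes of TNFRSF10B thus disagree in the size of the difference, and 2 of the 5 held the treatments apart.

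FAS encodes the receptor for FAS ligand, a death receptor that assembles FADD and CASP8 at the membrane. The log2 intensity of FAS probe 5890221 was 9.93, 9.92 and 10.30 with Ad-Cre and 9.23, 9.15 and 9.02 with Ad-eGFP. Ad-Cre replicate 3 was the highest of the 6 arrays, and no Ad-Cre array reached down to the Ad-eGFP range. The mean was 10.05 ± 0.22 (SD, n = 3) against 9.13 ± 0.11 (SD, n = 3), a log2 difference of 0.92 or 1.89-fold. FAS probe 240301 gave 8.66, 8.34 and 8.61 with Ad-Cre and 7.68, 7.62 and 7.60 with Ad-eGFP. The arrays were apart for this probe too. Its log2 difference was 0.90 or 1.87-fold, nearly that of the first FAS probe, from means of 8.54 ± 0.17 (SD, n = 3) and 7.63 ± 0.05 (SD, n = 3), and without background correction it was 0.66, in a range from 0.66 to 1.00. The last FAS probe, 2810554, was detected on no array. The array also holds probe 3610377 under the older symbol TNFRSF6 of the same gene, which lies outside the rule for the members and was added after its values were seen. It was detected on all Ad-Cre arrays and on 1 Ad-eGFP array, with a log2 difference of 1.69 from means of 7.09 ± 0.19 (SD, n = 3) and 5.40 ± 0.30 (SD, n = 3). That difference was 0.75 without background correction and 1.15 with the offset of 50, in a range from 0.75 to 1.83.

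TNFRSF1A encodes the death domain receptor for TNF, and its 3 probes were detected on all 6 arrays. The log2 intensity of TNFRSF1A probe 610010 was 9.48, 9.31 and 8.78 with Ad-Cre and 9.39, 9.41 and 9.49 with Ad-eGFP. Ad-Cre replicate 3 was low, and replicates 1 and 2 lay beside the Ad-eGFP arrays. Probe 7160059 gave 9.28, 9.14 and 8.64 with Ad-Cre and 9.38, 9.30 and 9.13 with Ad-eGFP. Probe 7560685 gave 9.34, 9.02 and 8.69 with Ad-Cre and 9.09, 9.00 and 9.25 with Ad-eGFP. All 3 TNFRSF1A probes thus overlapped between treatments, and in each of them Ad-Cre replicate 3 was the lowest of the 6 arrays. The log2 differences were -0.24, -0.25 and -0.10 for probes 610010, 7160059 and 7560685, each smaller than the SD between the Ad-Cre arrays. Without Ad-Cre replicate 3 they were -0.04, -0.06 and 0.06, the upper end of their alternatives, whose lower ends were -0.39, -0.38 and -0.26.

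TNFRSF1B encodes the other TNF receptor, which has no death domain. None of its 3 probes was detected on 3 arrays, and TNFRSF1B was therefore not tested. Probe 2230463 was detected on Ad-Cre arrays 2 and 3 and on no Ad-eGFP array. Its raw signals were 141, 137 and 170 with Ad-Cre and 133, 135 and 134 with Ad-eGFP. The Ad-Cre arrays lay above the others, chiefly replicate 3, and no fold is given for TNFRSF1B because the rest were near or below the detection limit. The other TNFRSF1B probes were not detected on any array.

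TNFRSF12A encodes the receptor for the TNF-like ligand TWEAK, a receptor without a death domain that signals to NF-kB. Its single probe, 1770541, had log2 intensities of 13.85, 13.77 and 13.63 with Ad-Cre and 13.22, 13.16 and 13.06 with Ad-eGFP. The signal was high on all 6 arrays, and the treatments did not overlap. The mean of TNFRSF12A was 13.75 ± 0.11 (SD, n = 3) against 13.14 ± 0.08 (SD, n = 3), a log2 difference of 0.61 or 1.52-fold.

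TNFSF10 encodes TRAIL, the ligand of TNFRSF10B and of the decoy receptors. Its single probe, 3290707, had raw signals of 104, 99.7 and 112 with Ad-Cre and 103, 115 and 114 with Ad-eGFP. TNFSF10 was thus not detected on any array, the treatments overlapped, and no fold is given.

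CASP8 encodes the initiator caspase that death receptors activate. The log2 intensity of CASP8 probe 2750537 was 9.79, 9.83 and 9.98 with Ad-Cre and 9.97, 9.83 and 9.89 with Ad-eGFP. The treatments overlapped, with a log2 difference of -0.03 between means of 9.87 ± 0.10 (SD, n = 3) and 9.90 ± 0.07 (SD, n = 3). CASP8 probe 1190068 gave 9.01, 9.13 and 9.20 with Ad-Cre and 9.40, 9.27 and 9.24 with Ad-eGFP. Here all Ad-Cre values were below all Ad-eGFP values, although the nearest arrays were close. The log2 difference of this CASP8 probe was -0.19, or 1.14-fold lower, between means of 9.11 ± 0.09 (SD, n = 3) and 9.30 ± 0.08 (SD, n = 3).

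**Figure D2:**
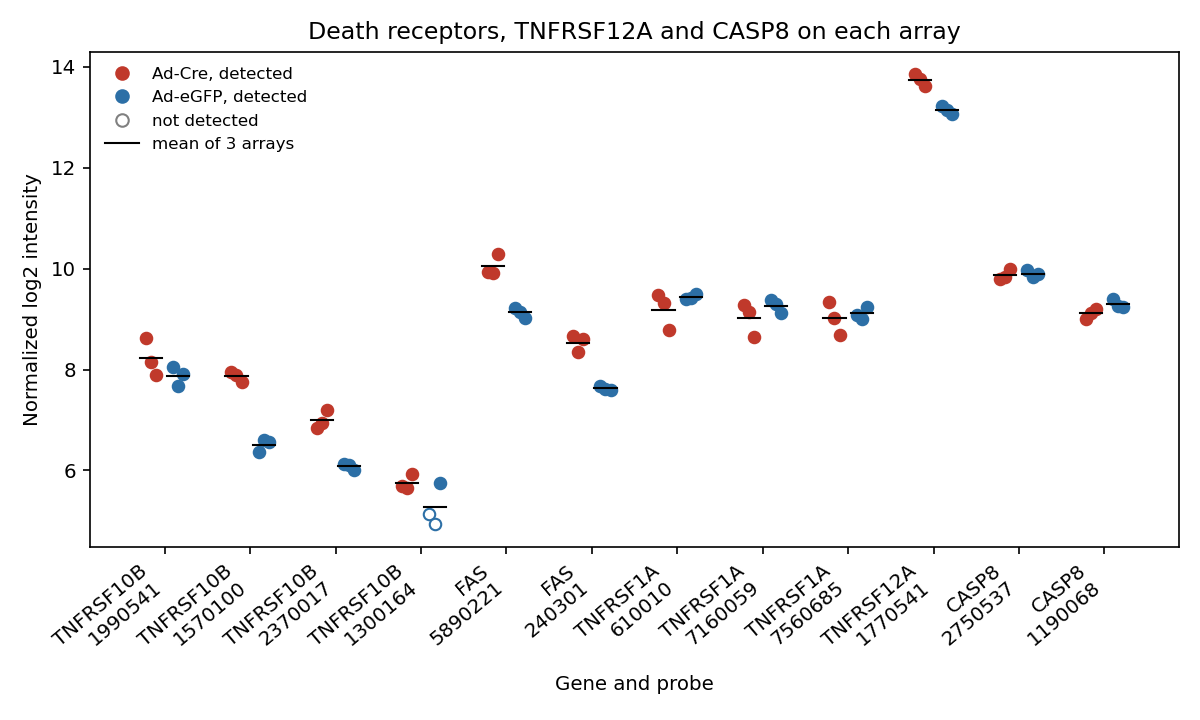
Normalized log2 intensity of each tested probe of TNFRSF10B, FAS, TNFRSF1A, TNFRSF12A and CASP8 on the 3 Ad-Cre and the 3 Ad-eGFP arrays, with 1 point per array, open points where the probe was not detected and lines for the mean of 3 arrays. The FAS probes are higher with Ad-Cre by 0.92 and 0.90, whereas the TNFRSF1A probes overlap, with Ad-Cre replicates 1 and 2 beside the Ad-eGFP arrays and replicate 3 below them.

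RefSeq promoters of GRCm38.p6, from 250 bases before to 50 bases after the start of the gene, were matched by symbol for 7 of the 10 genes: TNFRSF23, FAS, TNFRSF1A, TNFRSF1B, TNFRSF12A, TNFSF10 and CASP8. Those of FAS and TNFRSF12A are shown because each tested probe of these genes was higher on every Ad-Cre array than on any Ad-eGFP array. CTNNB1 acts on transcription through TCF/LEF factors. Capitals mark the TCF/LEF letters CTTTGAA or CTTTGAT, the interferon response motif, the STAT motif, the NF-kB motif and the p53 motif, each on both strands. The FAS promoter lies on the plus strand at chr19:34290409-34290708 and the TNFRSF12A promoter on the minus strand at chr17:23677400-23677699.
FAS: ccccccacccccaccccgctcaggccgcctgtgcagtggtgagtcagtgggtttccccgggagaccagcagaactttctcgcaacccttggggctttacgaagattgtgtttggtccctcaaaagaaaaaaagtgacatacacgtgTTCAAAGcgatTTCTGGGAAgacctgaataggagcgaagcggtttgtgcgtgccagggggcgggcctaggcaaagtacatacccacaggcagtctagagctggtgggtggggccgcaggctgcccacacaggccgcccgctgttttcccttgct
TNFRSF12A: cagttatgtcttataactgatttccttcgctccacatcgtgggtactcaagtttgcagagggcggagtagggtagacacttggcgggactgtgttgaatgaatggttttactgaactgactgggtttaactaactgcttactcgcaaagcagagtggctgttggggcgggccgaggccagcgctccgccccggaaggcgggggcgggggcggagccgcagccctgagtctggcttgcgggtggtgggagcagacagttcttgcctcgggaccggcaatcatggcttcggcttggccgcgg
In the FAS promoter the capitals are 1 TCF/LEF match, read on the other strand, and 1 STAT match, which do not overlap, and the TNFRSF12A promoter held none of the 5 motifs. Among the 7 promoters, the TCF/LEF letters were in that of FAS alone, the STAT motif in those of FAS, TNFRSF1A and TNFRSF1B, and the interferon response motif in that of TNFRSF1B, with the NF-kB and p53 motifs in none. Of all 32851 promoters of this length, 8.65% held the TCF/LEF letters, 8.30% the STAT motif, 3.44% the interferon response motif, 8.46% the NF-kB motif and 8.36% the p53 motif. A match describes these letters and does not show a bound site.

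Markers of the cell types that the culture could hold were read on the same arrays. All 13 Sertoli cell markers were tested, and 9 of them were lower with Ad-Cre at an adjusted p under 0.05 (limma) and 0 higher, where 12.2% of all tested probes were lower. Their summed normalized intensity was 125002, 121494 and 116346 on Ad-Cre arrays 1, 2 and 3 and 142835, 143307 and 149119 on Ad-eGFP arrays 1, 2 and 3, and Cldn11 had the brightest probe by its mean over the 6 arrays. The lower ones were Sox9, Wt1, Amh, Dhh, Fshr, Clu, Inha, Gata1 and Cst9, and Fshr differed by -1.46, or -0.98 without background correction. The count of lower Sertoli markers was between 8 and 10 when single arrays were left out and 7 by the methods' t-test. The adjusted p of Inha, 0.0360 for a difference of -0.47, was 0.0526, 0.0915, 0.104 and 0.0888 without Ad-Cre replicate 2 and Ad-eGFP replicates 1, 2 and 3, 0.0616 with no filter and 0.116 by the methods' t-test, in a range from 0.00556 to 0.116. That of Amh, 0.00829 for a difference of -1.16, was 0.0620 by the methods' t-test, in a range from 0.00132 to 0.0620, and the Amh difference was -0.48 without background correction. Amh was detected on only 1 Ad-Cre array, so the size of its difference rests on Ad-Cre values mostly below the detection limit. TNFRSF22, FAS and 2 probes of TNFRSF10B were thus higher on the same arrays on which the Sertoli marker sum was lower, and the part of this in their differences was not tested.

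Macrophages and lymphocytes carry several TNF receptors and ligands. Of 8 macrophage markers, 5 were tested. Csf1r, detected on the Ad-Cre arrays alone, was at least 1.54-fold higher under the background correction used here (adjusted p = 0.00204), a bound not reached by its log2 difference of 0.36 without that correction. Csf1r thus entered the test through the Ad-Cre arrays alone, and with no filter it still passed the threshold. Lyz2 was lower by a log2 difference of -0.35 (adjusted p = 0.0276), and Ptprc, Itgam and Fcgr1 were not detected on any array. The adjusted p of Lyz2 was 0.0795, 0.0807 and 0.104 without Ad-Cre replicate 2, Ad-eGFP replicate 1 and Ad-eGFP replicate 3, 0.0525 with median scaling, 0.0526 with the replicate block and 0.0579 by the methods' t-test, in a range from 0.00477 to 0.104 over its alternatives. The macrophage sum, led by Lyz2, was 2738, 2519 and 2451 with Ad-Cre and 3223, 2918 and 3388 with Ad-eGFP. It mainly follows Lyz2, whereas Csf1r was higher and Cd68, Adgre1 and Cd14 overlapped between treatments. The macrophage markers thus did not move together. Of 7 T or NK cell markers, Cd3e and Prf1 were tested and neither passed the threshold by its brightest probe. A dimmer probe of Cd3e passed as lower, but it entered the test through the Ad-eGFP arrays alone, where it was detected. No alternatives were run for that probe, among them the fit with no filter, so nothing is read from its call. Cd3g, Cd2, Nkg7, Ncr1 and Gzmb were not detected on any array. The sum of Cd3e and Prf1, led by Prf1, was 555, 1068 and 2184 with Ad-Cre and 1038, 1243 and 1427 with Ad-eGFP and overlapped. By its brightest probe, none of the 6 tested germ cell, 2 Leydig cell, 4 peritubular myoid cell and 2 endothelial cell markers passed the threshold in the limma fit. Dimmer probes of Dazl, a germ cell marker, and of Cyp11a1, a Leydig cell marker, did pass, with differences of -0.56 (adjusted p = 0.00726) and 0.53 (adjusted p = 0.0263). The myoid marker Tagln, higher by 0.50, did pass under 7 alternatives, namely no background correction (0.0109), offset of 50 (0.0254), median scaling (0.0365), the stricter detection filter (0.0333), the replicate block (0.0318), array weights (0.00661) and without Ad-Cre replicate 3 (0.00934), and its adjusted p ranged from 0.00661 to 0.156. Des, higher by 0.32, passed under 5 of these, all but median scaling and the replicate block, in a range from 0.0116 to 0.209. Cyp11a1, with a difference of -0.28, passed with array weights (0.0330) and without Ad-Cre replicate 1 (0.0259), in a range from 0.0259 to 0.234.

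The germ cell sum, led by Uchl1, was between 6592 and 6946 with Ad-Cre and between 6765 and 7406 with Ad-eGFP, and Sycp3, Stra8, Zbtb16 and Prm1 were not detected on any array. The Leydig cell sum, led by Cyp11a1, was between 375 and 442 against between 460.4 and 477, and Cyp17a1, Hsd3b1, Insl3 and Lhcgr were not detected. The myoid sum, led by Acta2, was between 55364 and 56770 against between 52984 and 54316, with Cnn1 not detected, and the endothelial sum, led by Pecam1, was between 101 and 114 against between 107 and 127, with Kdr and Tek not detected. The part of these cell types in the differences of the receptors was not tested.

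Other genes of the death receptor pathway were read from a list of 61 genes ordered by role, with the brightest tested probe for each gene. Of these, 59 had a probe and 46 were tested. With Ad-Cre 12 were higher and 8 lower at an adjusted p under 0.05 in the limma fit, and 26 did not pass, where 10.7% of all tested probes were higher and 12.2% lower. Their median log2 difference was 0.03, beside 6.42e-04 over all tested probes. The count of 20 fell to 11 without Ad-eGFP replicate 3.

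The ligands that could meet these receptors were mostly below detection. Fasl, the ligand of FAS, was detected on 1 array, and Tnfsf12, which encodes the TWEAK ligand of TNFRSF12A, was detected on none. Lta and Ltb were not detected either. Tnf, the ligand of TNFRSF1A and TNFRSF1B, was higher by 0.61 on the log2 scale (adjusted p = 0.0212), and all 3 Ad-Cre arrays lay above all Ad-eGFP arrays. The adjusted p of Tnf was 0.0696, 0.0679, 0.0626 and 0.0590 without Ad-Cre replicate 2 and Ad-eGFP replicates 1, 2 and 3, and 0.0909 by the methods' t-test, in a range from 0.00216 to 0.0909 over its alternatives. Its difference was 0.29 without background correction, and its other probe, higher by 0.56, had an adjusted p of 0.0508.

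Of 7 further receptors grouped here with the death receptors and decoys, not all of which are either, 3 were higher and 2 lower with Ad-Cre. Among all tested probes 10.7% were higher and 12.2% lower. Ngfr, the neurotrophin receptor, was higher by 1.18 (adjusted p = 0.00216), a difference of 0.52 without background correction. Tnfrsf21, the death domain receptor DR6, was higher by 0.49 (adjusted p = 0.00890). Edar, the ectodysplasin receptor, was detected on the Ad-Cre arrays alone and was at least 1.01-fold higher (adjusted p = 0.0116), with a measured log2 difference of 0.47 that became 0.19 without background correction. Edar thus entered the test through the Ad-Cre arrays alone, and with no filter it still passed the threshold. Tnfrsf25, a death domain receptor of lymphocytes, was lower by a log2 difference of -0.79 (adjusted p = 0.00647), or -0.41 without background correction. Tnfrsf11b, the secreted decoy osteoprotegerin, which can bind TRAIL as TNFRSF22 does, was lower by a difference of -0.58 (adjusted p = 0.00222). None of these 5 genes overlapped between treatments, where 42% of all tested probes did not overlap. All 5 had passed the threshold on the same arrays, so nothing is read from this. Of the decoys, TNFRSF22, chosen by this contrast, was higher and Tnfrsf11b lower with Ad-Cre.

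Of the 11 tested adaptors and kinases, 5 were higher and 3 lower, where 10.7% of all tested probes were higher and 12.2% lower. Traf6 did not pass by its brightest probe (adjusted p = 0.409 in the limma fit), but a dimmer probe, higher by 0.41, did (adjusted p = 0.00950). Fadd, the adaptor that joins FAS and TNFRSF10B to CASP8, was lower by a log2 difference of -0.50 (adjusted p = 0.00806), and 3 of its 4 probes passed the threshold in that direction. Ripk1, the kinase of the TNFRSF1A complex, was lower by -0.46 (adjusted p = 0.0120), with an adjusted p of 0.0534 without Ad-eGFP replicate 3 in a range from 0.00129 to 0.0534. Tab1, a partner of the kinase encoded by Map3k7, was lower by -0.43 (adjusted p = 0.00649), and 2 of its 4 probes passed the threshold. Traf3, a ubiquitin ligase of TNF receptor complexes, was higher by 0.48 (adjusted p = 0.00344). Ripk3 and Mlkl, which carry out necroptosis when CASP8 is inactive, were higher by 0.52 (adjusted p = 0.0200) and 0.44 (adjusted p = 0.0184). The adjusted p of Ripk3 was 0.0601, 0.0687 and 0.0641 without Ad-Cre replicate 1 and Ad-eGFP replicates 1 and 3, in a range from 0.00428 to 0.0779, the value of the methods' t-test. That of Mlkl was 0.0634, 0.0560, 0.0510 and 0.0729 without Ad-Cre replicate 2 and Ad-eGFP replicates 1, 2 and 3 and 0.0597 by the methods' t-test, in a range from 0.00252 to 0.0729.

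Map3k7, the kinase TAK1 downstream of TNFRSF1A, was higher by 0.57 (adjusted p = 0.0385), but its other probe, higher by 0.18, did not pass the threshold (adjusted p = 0.449). Its difference was 0.28 without background correction, and its adjusted p was 0.0890, 0.0826, 0.0839 and 0.0629 without Ad-Cre replicates 1, 2 and 3 and Ad-eGFP replicate 2, 0.0664 with no filter, 0.0568 with the replicate number as a block and 0.133 by the methods' t-test, in a range from 0.0163 to 0.133. Tab2, another partner of that kinase, was higher by 0.35 (adjusted p = 0.0130), with 0.0586 and 0.0578 without Ad-eGFP replicates 2 and 3 in a range from 0.00174 to 0.0586. Cradd and Map3k5 were not detected on any array, and Tradd, the first adaptor of TNFRSF1A, had no matched probe.

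Of the 10 tested inhibitors and deubiquitinases, 3 were higher and 2 lower, where 10.7% of all tested probes were higher and 12.2% lower. Tnfaip3, which encodes the ubiquitin-editing inhibitor A20 of TNFRSF1A signaling, was higher by 1.45 (adjusted p = 0.00134) with all Ad-Cre arrays above all Ad-eGFP arrays, and by 0.88 without background correction. Tnip1, a partner of A20, of whose 4 probes 2 passed, was higher by 0.53 (adjusted p = 0.0197), with 0.0654, 0.0621 and 0.0729 without Ad-Cre replicate 2 and Ad-eGFP replicates 2 and 3 and 0.0794 by the methods' t-test, in a range from 0.00204 to 0.0794. Birc2, an inhibitor of apoptosis that ubiquitinates RIPK1, was lower by a log2 difference of -0.85 (adjusted p = 0.00117), and all 4 of its probes passed the threshold in that direction. Birc3 and Xiap, further inhibitors of apoptosis, were not detected on any array.

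Cflar, which encodes the inhibitor c-FLIP of CASP8, was lower by a log2 difference of -0.36 (adjusted p = 0.0207), by a probe that the array lists under a RIKEN clone name matched through RefSeq, and the probes listed as CFLAR were not detected. Its adjusted p was 0.0515, 0.0739 and 0.0856 without Ad-Cre replicate 2 and Ad-eGFP replicates 1 and 3, in a range from 0.0107 to 0.0856. Faim, an inhibitor of FAS-induced death, was higher by 0.34 (adjusted p = 0.0340). Without Ad-Cre replicates 1 and 3 and Ad-eGFP replicates 1, 2 and 3 its adjusted p was 0.0870, 0.0540, 0.104, 0.0852 and 0.101, and it was 0.0560 with no filter, 0.0607 with the replicate block and 0.0722 by the methods' t-test, in a range from 0.00836 to 0.104. The other Faim probe, higher by 0.48, passed the threshold in the limma fit too (adjusted p = 0.00783).

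Of the 12 tested caspases and execution genes, 0 were higher and 1 was lower in the limma fit. Among all tested probes 10.7% were higher and 12.2% lower, so few genes past the threshold would be usual in a group of this size. The group also holds genes of the mitochondrial route. The lower one, Casp9, the initiator caspase of the mitochondrial route, had a log2 difference of -0.42 (adjusted p = 0.0112), and without Ad-eGFP replicate 3 its adjusted p was 0.0511, in a range from 0.00126 to 0.0511. Bid, which CASP8 cleaves, differed by 0.21 (adjusted p = 0.170). The adjusted p of Bid was 0.0250 without Ad-Cre replicate 3 and 0.0289 with array weights, in a range from 0.0250 to 0.374. Apaf1, which activates the caspase encoded by Casp9, differed by 0.21 (adjusted p = 0.0831), with 0.0438 without background correction and 0.0336 with array weights, in a range from 0.0336 to 0.222. Endog and Dffb were not detected on any array. None of the 3 genes of the ubiquitin ligase complex LUBAC and neither of the receptor-shedding proteases Adam10 and Adam17 passed the threshold.

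**Figure D3:**
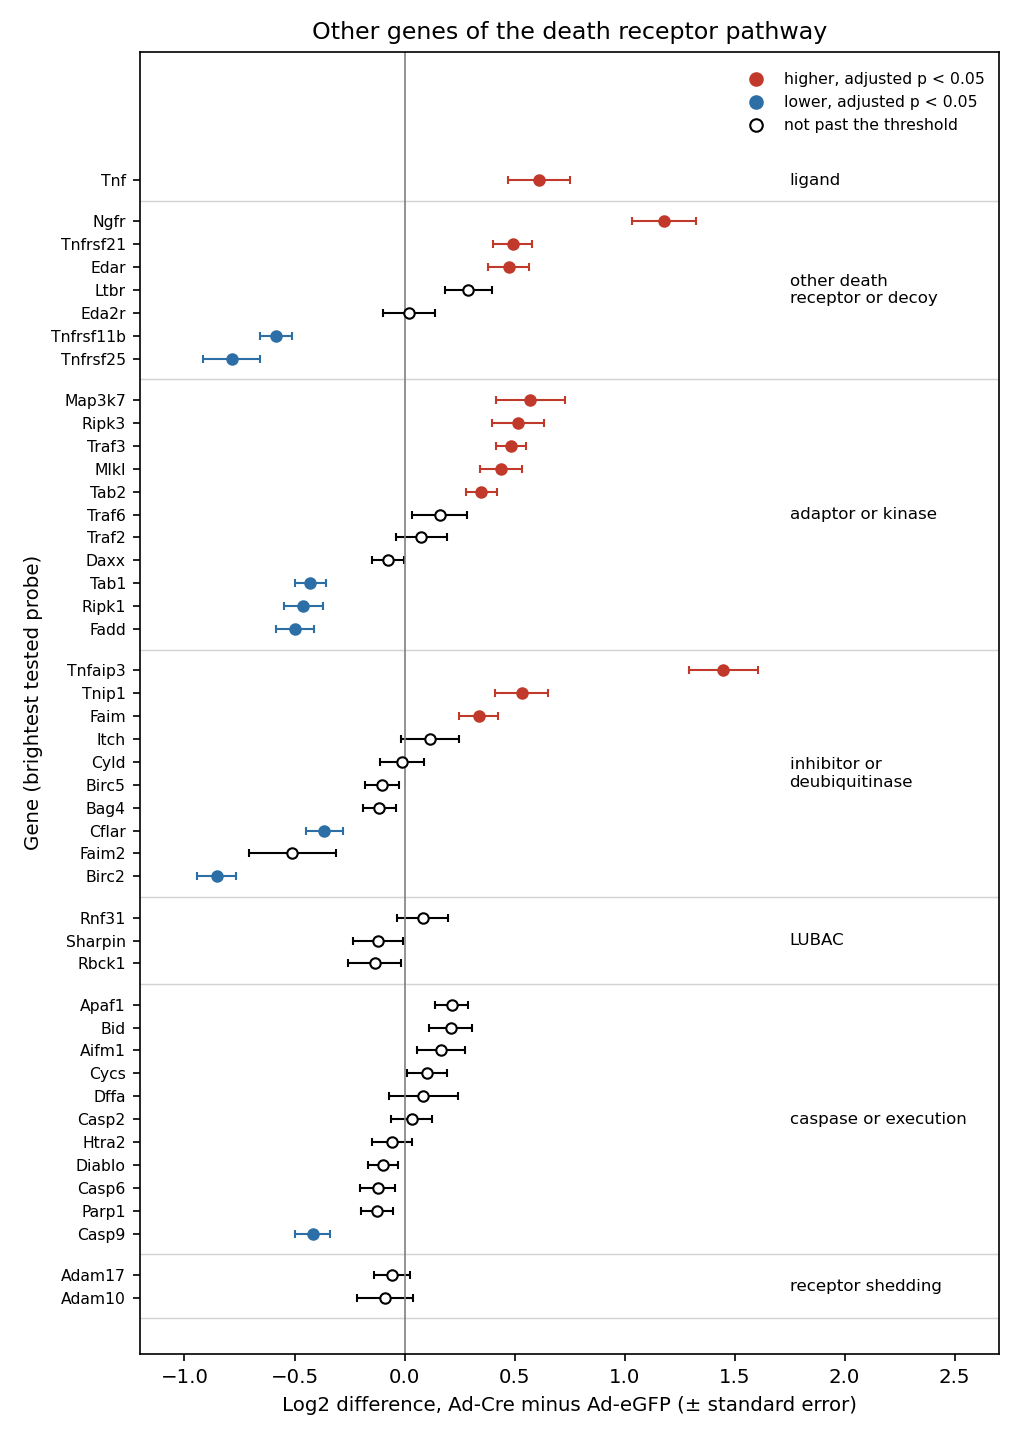
Log2 difference (Ad-Cre minus Ad-eGFP, ± standard error from limma) of tested pathway genes other than the 10 described genes, grouped by role, with filled points at an adjusted p under 0.05. The 12 higher genes are receptors, adaptors, kinases, inhibitors and Tnf, and the caspase and execution group holds 1 gene past the threshold, Casp9.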

How the data were processed

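RNA of primary Sertoli cells on 6 arrays (3 Ad-Cre, 3 Ad-eGFP) was read from the deposited non-normalized table. Its raw signal intensity, per the file headers neither background-subtracted nor normalized, and its detection p-value, which per the file headers compares each probe with negative-control beads, were used as deposited. Another table holds the authors' comparison (means, fold changes and p-values) and was not used, nor were 12 further columns. In R 4.3.3 with limma 3.58.1, signals were background-corrected (normexp, controls inferred from the detection p-values, offset 16), quantile normalized and put on the log2 scale. Of 45281 probes, the 20855 detected (p-value under 0.05) on 3 or more arrays were tested with a two-sided moderated t-test, Benjamini-Hochberg adjusted, and 24426 were left out. Of 31490 symbols, 21545 matched RefSeq. The members and lists were chosen with earlier results of these data known. Named list genes are those past the threshold, a set picked by role whatever the value, and for markers also the brightest gene and those never detected, and some list genes are not reported here. Alternatives: no background correction, offset of 50, median scaling, no filter, a stricter detection filter (p under 0.01, all arrays), replicate block, the t-test named in the methods (here Benjamini-Hochberg adjusted, without the study's EB step and fold threshold; called the methods' t-test), array weights, leaving out each array, and the mean of a gene's probes.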

Additional observations from a re-analysis of the deposited data

How the results depend on the processing

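The count of probes past the threshold, 4774, was between 2483 and 5669 when single arrays were left out, with 3019, 2954, 2820 and 2483 without Ad-Cre replicate 2 and Ad-eGFP replicates 1, 2 and 3. It was 7082 with array weights, 5760 without background correction and 3220 by the methods' t-test. The count of member probes past the threshold, 8, is a description, since this contrast chose the members, and was between 7 and 9. Over all alternatives that of pathway genes, 20, was between 11 and 23, and that of other TNF receptor and ligand genes, 4, was 3 or 4. The pathway count was 11 without Ad-eGFP replicate 3. Without background correction, log2 differences of dim probes were smaller, among them those of TNFRSF22, TNFRSF10B and Tnf. Samples share only a replicate number: the correlations of same-numbered samples were 0.157, 0.0554 and 0.0413, Ad-Cre replicate 3 correlated with Ad-eGFP replicate 2 (0.0411) nearly as with its own number, and with the replicate block 4162 probes, 9 member probes and 19 pathway genes passed the threshold. With 3 arrays per treatment, the smallest p of an exact rank test would be 0.1.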

Other observations

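The rest of the TNF receptor and ligand superfamily was mostly below detection. Of 25 further genes, 6 were tested, 15 were detected on no array, and 4 passed an adjusted p of 0.05 in the limma fit (3 higher, 1 lower), where 22.9% of all tested probes passed. Cd40, a receptor of antigen-presenting cells, was higher by 0.52 (adjusted p = 0.0166), with 0.0520, 0.0513 and 0.0523 without Ad-Cre replicates 1 and 2 and Ad-eGFP replicate 3 and 0.0682 by the methods' t-test, in a range from 0.00692 to 0.0682, and its difference was 0.31 without background correction. Tnfrsf13c, the receptor for the B cell factor BAFF, was detected on the Ad-Cre arrays alone and was at least 1.24-fold higher (adjusted p = 0.00527), with a measured log2 difference of 0.92 that became 0.38 without background correction. Tnfrsf13c thus entered the test through the Ad-Cre arrays alone, and with no filter it still passed the threshold. Tnfsf13b, which encodes BAFF, was higher by 0.63 (adjusted p = 0.00811), or 0.35 without background correction. Tnfsf13, which encodes the related ligand APRIL, was lower by a log2 difference of -0.83 (adjusted p = 8.14e-04). None of these 4 genes overlapped between treatments, where 42% of all tested probes did not overlap. The 4 genes had passed the threshold on the same arrays, so nothing is read from this.

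The contrast compares cells that received Ad-Cre with cells that received Ad-eGFP, all carrying the floxed alleles, at a single time. RNA was measured and protein was not analysed here, so nothing is known here of receptor at the cell surface, of caspase activity or of cell death. The probes that disagree within a gene could not be placed on transcripts, because their sequences were not used here. The promoters of TNFRSF22, TNFRSF26 and TNFRSF10B were not matched by symbol among the promoters used here and are not shown.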
